A study of Mus musculus with 6 samples.

Results

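The genes described here are 39 interferon-stimulated genes, chosen by symbol from the deposited table of read counts. All 39 symbols were present among its 52459 rows, and all 39 passed the filter on low counts, as did 14130 genes in all. The libraries came from 6 mouse liver tumour samples of genotype MYC-LAP-tTA. In 3 of them MYC had been inactivated for 4 days (MYC_Off), and in 3 it was active (MYC_On). In this design a transactivator controlled by tetracycline is made from a liver promoter (LAP), so the MYC transgene is switched in cells in which that promoter works. All groups carry the same transgenes. The labels used here give neither the agent that switched MYC off nor the strain, sex or age of the animals, nor whether each library is from its own animal. The p-values therefore reflect variation among these libraries alone, which could be technical variation.

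Type I interferons are secreted by cells that sense viral or misplaced nucleic acid. They bind the IFNAR receptor, and its kinases JAK1 and TYK2 phosphorylate STAT2. A complex that holds STAT2 and IRF9 binds an element called ISRE in the promoters of interferon-stimulated genes. The products include sensors of foreign RNA and DNA, effectors that block viral replication, and regulators such as IRF7 that raise or end the response. Many of the same genes also respond to type II or type III interferon. In liver they can be made by hepatocytes, macrophages, endothelial cells and other immune cells. In RNA of whole tissue, more cells of a type and more RNA per cell cannot be told apart.

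The 6 libraries held between 16292718 and 19265623 counted reads, so that 1 read was worth 0.0409 to 0.0768 CPM, a read count scaled to sequencing depth. All CPM values below also carry the TMM scaling. Myc had 74.8, 10.2 and 18.7 CPM in MYC_Off replicates 1, 2 and 3, against 779, 1020 and 854 CPM in MYC_On replicates 1, 2 and 3, with reads of transgene and mouse gene not separated. Of 10 hepatocyte markers 9 were higher in MYC_Off, led in level by Alb, and all 10 had reads in every library. Cyp2e1 was called higher though its groups overlapped. It had 982, 5720 and 2.15 CPM in MYC_Off replicates 1, 2 and 3, against 48.9, 4.75 and 6.71 CPM in MYC_On. MYC_Off replicate 1 stood apart from the other libraries in its markers of macrophages and of T, NK and B cells, but not of neutrophils. The summed level of 12 macrophage markers was 8637, 3181 and 2216 CPM in MYC_Off replicates 1, 2 and 3, against 655.5, 814.7 and 1225 CPM in MYC_On replicates 1, 2 and 3. The summed level of 10 T cell markers was 254.3, 31.4 and 5.84 CPM in MYC_Off, against 3.79, 5.65 and 6.02 CPM in MYC_On, in the same order. Results that rest on this library are given with and without it.

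Most of the interferon-stimulated genes were higher in MYC_Off. At an adjusted p of 0.05, 32 of 39 were higher (82.1%), 2 were lower and 5 did not pass. Over all 14130 tested genes, 29.9% were higher and 22.8% were lower. The median log2 fold change of the 39 was 2.49, against 0.18 over all tested genes, of which the 75th percentile was 1.62 and the 90th 3.21. In 33 of the 39 genes every MYC_Off library lay above every MYC_On library (84.6%), against 33.2% of all tested genes. In 2 every MYC_Off library lay below every MYC_On library, against 29.8% of all tested genes. Those that passed as higher had log2 fold changes between 1.17 and 4.43, and 25 of the 32 were changed by more than 4-fold. The medians of the MYC_Off libraries relative to the MYC_On mean were 2.62, 2.08 and 2.05 on the log2 scale in replicates 1, 2 and 3, so the difference was present in each of them.

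**Figure D1:**
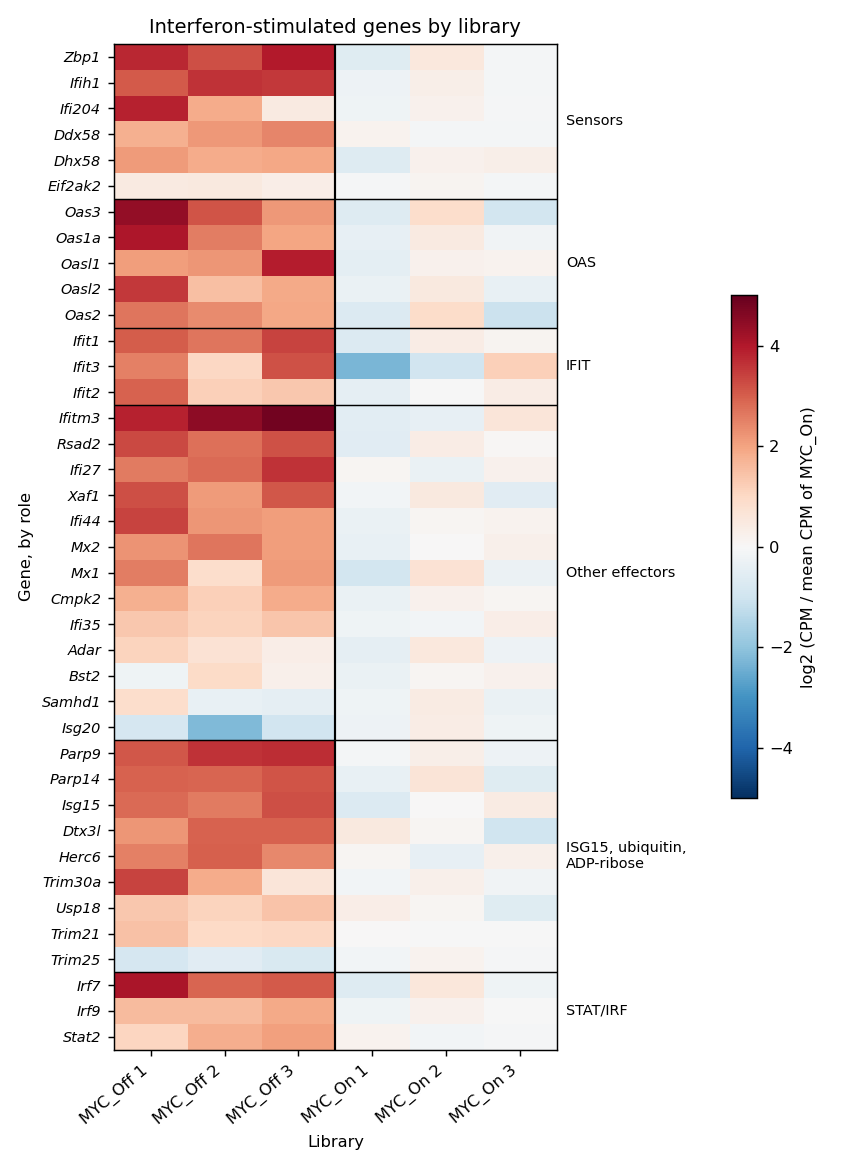
Heat map of the 39 genes (rows, by role and fold change) in the 6 libraries (columns, MYC_Off left of MYC_On), with colour giving log2 of CPM over the mean CPM of MYC_On. The MYC_Off columns are red for most genes of each role, while Isg20 and Trim25 are blue there, and Ifi204, Trim30a and Oas1a are reddest in MYC_Off replicate 1.

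The count of 32 did not depend on MYC_Off replicate 1 alone: 30 were higher without it, with a median of 2.02. Without MYC_On replicates 1, 2 and 3 in turn, 26, 27 and 26 were higher. Over all tested genes, 4222 of 14130 were higher with every library and 4022 of 14425 without MYC_Off replicate 1. Leaving out MYC_On replicates 1, 2 and 3 in turn gave 2841 of 14918, 2776 of 14871 and 2873 of 14941. With libraries scaled by their size only, 23 were higher and 2 lower. That scaling moved the median of all tested genes to -0.56, and the members then lay 2.38 above that median, against 2.31 with TMM. Against a minimum change of 2-fold, 23 were higher and 0 lower.

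Promoter sequence is shown first because the ISRE is the element through which type I interferon acts on such genes. RefSeq promoter windows of 300 bases (250 before and 50 after an annotated start, GRCm38.p6, the assembly called mm10) were found for 29 of the 39 genes. For 23 of the 29, the first bases after the start of a window also occur in a GENCODE transcript of that gene on the same strand. Ifi204, Dhx58, Zbp1, Oas2, Mx1, Mx2, Ifi27, Usp18, Parp9 and Parp14 had no window in the table. ISRE letters, taken as TTTC followed by any 2 bases and TTTC again (on the other strand GAAA, any 2 bases and GAAA), were found in a window of 14 of the 29 (48.3%), against 3.99% of 27025 genes with windows of this length. Letters of the GAS element, TTCNNNGAA, were in windows of 9 of the 29 (31.0%), against 9.55% of all. The E-box CACGTG, a sequence that MYC and its partner MAX bind, was in the window of 1 of the 29 (3.45%), Trim25. It was in those of 8.09% of all genes with windows and 11.5% of the tested ones. Of the 23 ISRE matches in these windows 2 share bases with a GAS match. The 250 bases before the start are printed for 5 genes with ISRE letters and for Trim25, 5′ to 3′ on the strand of the gene, with ISRE matches in capitals (for Trim25 the E-box).
Isg15: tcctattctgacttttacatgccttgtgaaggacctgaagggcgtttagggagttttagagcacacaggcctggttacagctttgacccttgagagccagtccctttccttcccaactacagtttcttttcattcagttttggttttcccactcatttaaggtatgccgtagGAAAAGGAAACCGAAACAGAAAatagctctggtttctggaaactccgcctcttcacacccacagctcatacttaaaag
Ifit1: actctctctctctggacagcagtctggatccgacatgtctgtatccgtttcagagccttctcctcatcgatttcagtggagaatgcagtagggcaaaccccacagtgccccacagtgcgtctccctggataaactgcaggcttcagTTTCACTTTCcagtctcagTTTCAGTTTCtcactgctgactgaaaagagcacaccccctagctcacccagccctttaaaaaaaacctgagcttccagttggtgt
Rsad2: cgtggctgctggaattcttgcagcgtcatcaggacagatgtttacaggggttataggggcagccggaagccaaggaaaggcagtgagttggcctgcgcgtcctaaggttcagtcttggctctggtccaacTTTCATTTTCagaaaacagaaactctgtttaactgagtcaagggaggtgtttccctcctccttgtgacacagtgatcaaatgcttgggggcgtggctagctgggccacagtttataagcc
Oas1a: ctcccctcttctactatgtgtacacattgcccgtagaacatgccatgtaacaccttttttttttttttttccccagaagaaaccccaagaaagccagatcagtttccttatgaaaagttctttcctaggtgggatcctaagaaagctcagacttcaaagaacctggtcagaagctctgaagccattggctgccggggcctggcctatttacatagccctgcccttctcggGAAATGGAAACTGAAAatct
Bst2: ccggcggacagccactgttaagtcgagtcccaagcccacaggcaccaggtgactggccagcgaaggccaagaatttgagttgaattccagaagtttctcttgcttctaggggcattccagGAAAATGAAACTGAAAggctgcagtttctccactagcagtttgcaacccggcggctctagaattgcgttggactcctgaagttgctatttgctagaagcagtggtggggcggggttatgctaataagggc
Trim25: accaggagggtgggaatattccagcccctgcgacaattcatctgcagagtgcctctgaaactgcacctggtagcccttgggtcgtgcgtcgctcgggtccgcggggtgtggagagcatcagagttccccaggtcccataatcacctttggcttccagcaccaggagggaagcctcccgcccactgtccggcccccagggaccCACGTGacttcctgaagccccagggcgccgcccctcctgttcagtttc

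Isg15 (chr4:156200819-156201068 (minus strand)) has 3 ISRE matches that overlap each other in 1 run of capitals. Ifit1 (chr19:34640639-34640888 (plus strand)) has 2 that are separate, and Rsad2 (chr12:26456453-26456702 (minus strand)) has 1. Oas1a (chr5:120907526-120907775 (minus strand)) has 2 that overlap close to its start, and Bst2 (chr8:71537473-71537722 (minus strand)) also has 2 that overlap. Trim25 (chr11:88999153-88999402 (plus strand)) has no ISRE match in its window. Of the 14 genes with ISRE letters 11 were higher in MYC_Off and 3 did not pass (Bst2, Eif2ak2 and Ifit3), with a median log2 fold change of 2.70. Of the 15 windowed genes without them 11 were higher, 2 lower and 2 did not pass, with a median of 2.05. All 10 genes with no window were higher, with a median of 2.52. A match is a string of letters in the window, not a measured binding site, and binding was not measured in these samples.

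Among the sensors of nucleic acid, 5 of 6 were higher in MYC_Off, with a median log2 fold change of 2.42. Ifih1 (MDA5, a helicase that senses long double-stranded RNA; chromosome 2, 62595798 to 62646255, mm10) had 40.9, 60.2 and 56.8 CPM in MYC_Off, against 4.10, 5.93 and 4.59 CPM in MYC_On. The groups were far apart and MYC_Off replicate 1 was the lowest of its group (log2 fold change 3.43, SE 0.28, adjusted p = 0.000805). Ddx58 (RIG-I, which senses RNA with a 5′ triphosphate; chromosome 4, 40203773 to 40239828) had 46.5, 59.8 and 73.6 CPM in MYC_Off, against 15.3, 12.5 and 12.4 CPM in MYC_On. It too was lowest in MYC_Off replicate 1, with no overlap between groups (log2 fold change 2.16, SE 0.25, adjusted p = 0.00106). Dhx58 (LGP2, a relative of both that lacks their signalling domain) had 14, 11.6 and 12.3 CPM in MYC_Off, against 2.05, 3.72 and 3.95 CPM in MYC_On. The MYC_Off values lay close together (log2 fold change 1.96, SE 0.37, adjusted p = 0.00478).

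Zbp1 senses Z-form nucleic acid and can start necroptosis (chromosome 2, 173206612 to 173218923). It had 29.5, 20.3 and 33.9 CPM in MYC_Off, against 1.43, 3.11 and 2.02 CPM in MYC_On, the largest log2 fold change among the 6 sensors (3.67, SE 0.40, adjusted p = 0.000967). Eif2ak2 (PKR), the kinase that halts translation on binding double-stranded RNA, differed much less. Its values were 26.5, 27.2 and 24.2 CPM in MYC_Off, against 18.6, 21.2 and 18.2 CPM in MYC_On. The groups did not overlap, but the log2 fold change of 0.43 (SE 0.21, adjusted p = 0.12) did not pass, was 0.27 without MYC_Off replicate 1, and was -0.30 with scaling by library size only. Ifi204, a DNA sensor of the Ifi200 family, was carried by a single library. It had 51.1, 12.8 and 4.84 CPM in MYC_Off, against 3.07, 4.13 and 3.45 CPM in MYC_On (log2 fold change 2.69, SE 0.80, adjusted p = 0.0263). Without MYC_Off replicate 1 its log2 fold change was 1.16 (adjusted p = 0.071), and without MYC_On replicates 1, 2 and 3 in turn it was 2.54, 2.76 and 2.61 (adjusted p = 0.0866, 0.084 and 0.0891). With library size only it was 2.17 (adjusted p = 0.0685).

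**Figure D2:**
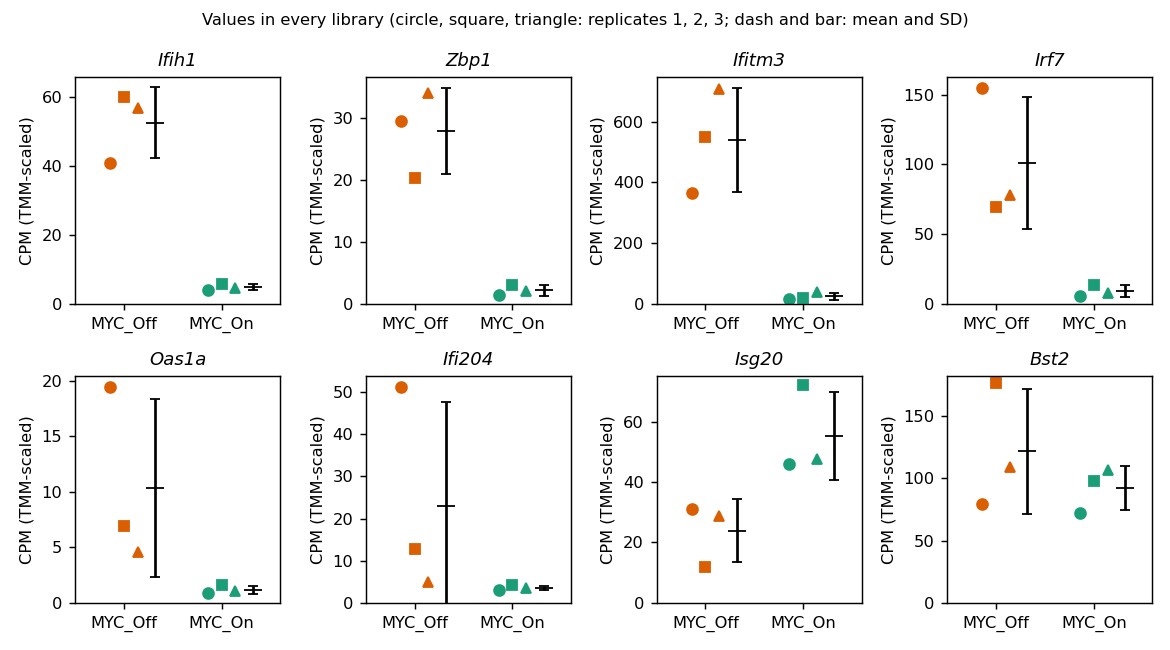
TMM-scaled CPM (vertical axes, from 0) of 8 genes in MYC_Off (left, orange) and MYC_On (right, green), with a circle, square and triangle for replicates 1, 2 and 3 and a dash and bar for mean and SD (n = 3, the bar of Ifi204 cut at 0). Ifih1, Zbp1, Ifitm3 and Irf7 separate widely, Oas1a and Ifi204 are highest in MYC_Off replicate 1 at 19.5 and 51.1 CPM, Isg20 is lower in MYC_Off, and the Bst2 groups overlap.

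The OAS family makes 2′-5′ oligoadenylate on binding double-stranded RNA, which activates the nuclease RNase L. Its OAS-like members Oasl1 and Oasl2 are related proteins, and mouse OASL1 is known to restrain the translation of Irf7. All 5 genes were higher in MYC_Off. Their median was 2.99 on the log2 scale, and 4 of the 5 were highest in MYC_Off replicate 1. Oas1a had 19.5, 6.89 and 4.61 CPM in MYC_Off, against 0.891, 1.6 and 1.04 CPM in MYC_On. It separated the groups in every library but varied 4.23-fold within MYC_Off (log2 fold change 3.13, SE 0.65, adjusted p = 0.00688). Without MYC_Off replicate 1 its log2 fold change was 2.14 (adjusted p = 0.00767). Oas3 had 11.8, 4.97 and 2.53 CPM in MYC_Off, against 0.356, 1.02 and 0.296 CPM in MYC_On. It showed the same order of MYC_Off libraries (log2 fold change 3.50, SE 0.79, adjusted p = 0.00944), and stood at 2.58 without MYC_Off replicate 1 (adjusted p = 0.016).

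Oas2 had 10.1, 8.04 and 6.07 CPM in MYC_Off, against 0.980, 2.99 and 0.740 CPM in MYC_On. It was more even in MYC_Off (log2 fold change 2.35, SE 0.62, adjusted p = 0.0162), and leaving out MYC_On replicate 1 or 3 gave an adjusted p of 0.07 (2.05) or 0.0602 (1.96), and library size only one of 0.0757 (1.64). Oasl2 had 39, 9.64 and 12.5 CPM in MYC_Off, against 2.72, 4.83 and 2.66 CPM in MYC_On (log2 fold change 2.58, SE 0.61, adjusted p = 0.0109). Without MYC_Off replicate 1 it stood at 1.56 (adjusted p = 0.0141), and without MYC_On replicate 3 at 2.38 (adjusted p = 0.0525). Oasl1 differed in order, with 14, 15.2 and 49.3 CPM in MYC_Off, against 2.32, 3.85 and 3.70 CPM in MYC_On. Its highest library was MYC_Off replicate 3 (log2 fold change 2.99, SE 0.57, adjusted p = 0.0052). Without MYC_On replicate 3, 3 of the 5 family members were higher.

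The IFIT proteins bind viral RNA ends or other targets and block their translation. Ifit1 had 18.8, 14.6 and 23.8 CPM in MYC_Off, against 1.43, 2.95 and 2.52 CPM in MYC_On. It was raised to a like level in each MYC_Off library (log2 fold change 3.05, SE 0.40, adjusted p = 0.00144). Ifit2 had 32.9, 9.80 and 10.9 CPM in MYC_Off, against 3.16, 4.22 and 5.57 CPM in MYC_On (log2 fold change 2.05, SE 0.55, adjusted p = 0.0172). MYC_Off replicate 1 held most of this difference: without it the value was 1.11 (adjusted p = 0.0346), and without MYC_On replicates 1 and 2 the adjusted p was 0.0701 and 0.0697 (1.81 and 1.98). With library size only it was 0.0878 (1.48). Ifit3 had 4.95, 1.76 and 7.83 CPM in MYC_Off, against 0.178, 0.450 and 1.97 CPM in MYC_On. These groups overlapped and Ifit3 did not pass (log2 fold change 2.49, SE 0.95, adjusted p = 0.0597). It stood at 3.86 without MYC_On replicate 3 (adjusted p = 0.0294). Of the 50-base strings of Ifit3 transcripts 51.2% also occur in Ifit3b, so its count is uncertain.

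Of 13 further antiviral effectors 9 were higher in MYC_Off, 1 was lower and 3 did not pass, with a median log2 fold change of 2.01. Ifitm3, a membrane protein that stops viruses from fusing in endosomes (chromosome 7, 141009586 to 141010770), had the largest fold change of the 39 genes. It had 364, 551 and 706 CPM in MYC_Off, against 17.6, 19.1 and 38.5 CPM in MYC_On (log2 fold change 4.43, SE 0.47, adjusted p = 0.000967). Its order in MYC_Off was the reverse of that of Oas1a, with replicate 1 lowest. Ifi27, a small membrane protein of mitochondria, had 90.7, 108 and 182 CPM in MYC_Off, against 15.9, 11.9 and 17.5 CPM in MYC_On (log2 fold change 3.07, SE 0.34, adjusted p = 0.000967). Rsad2 (viperin, an enzyme that makes a chain-terminating nucleotide) had 29.3, 20.2 and 26.9 CPM in MYC_Off, against 2.00, 3.89 and 3.11 CPM in MYC_On. Cmpk2, a mitochondrial nucleotide kinase whose gene lies beside Rsad2, had 13.8, 9.26 and 14.7 CPM in MYC_Off, against 3.21, 4.67 and 4.29 CPM in MYC_On. Both separated the groups, Rsad2 by 3.08 on the log2 scale (SE 0.35, adjusted p = 0.00101) and Cmpk2 by 1.64 (SE 0.35, adjusted p = 0.00713). With library size only Cmpk2 stood at 0.92 and did not pass (adjusted p = 0.108).

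Mx1 and Mx2 belong to a family of dynamin-like GTPases that trap viral nucleocapsids. Many laboratory strains of mouse carry a defective Mx1, and Mx2 is annotated as a polymorphic pseudogene. Mx1 had 9.89, 3.14 and 7.45 CPM in MYC_Off, against 0.891, 2.78 and 1.38 CPM in MYC_On. The lowest MYC_Off library lay near the highest MYC_On library, and the call was weak (log2 fold change 2.01, SE 0.62, adjusted p = 0.0299). It was lost without MYC_Off replicate 1 (1.5, adjusted p = 0.076) or 3 (1.91, adjusted p = 0.0606) and without MYC_On replicate 1 (1.65, adjusted p = 0.109) or 3 (1.83, adjusted p = 0.111), and with library size only (1.35, adjusted p = 0.14). Mx2 had 7.86, 10.8 and 7.14 CPM in MYC_Off, against 1.29, 1.72 and 2.02 CPM in MYC_On (log2 fold change 2.35, SE 0.40, adjusted p = 0.00334). Xaf1, which antagonises the apoptosis inhibitor XIAP, had 12.1, 5.66 and 11.3 CPM in MYC_Off, against 1.2, 1.84 and 0.888 CPM in MYC_On (2.88, SE 0.50, adjusted p = 0.00349). Ifi44, a GTP-binding protein, was highest in MYC_Off replicate 1. It had 31.3, 14 and 12.7 CPM in MYC_Off, against 2.41, 3.19 and 3.40 CPM in MYC_On (2.69, SE 0.44, adjusted p = 0.00306). Without MYC_Off replicate 1 it stood at 2.00 (adjusted p = 0.00252). Ifi35, a partner of Nmi, had 36.9, 31.1 and 37.9 CPM in MYC_Off, against 12.2, 12.9 and 18.0 CPM in MYC_On (1.30, SE 0.25, adjusted p = 0.00476), and its call was lost with library size only (0.59, adjusted p = 0.147).

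Isg20, a 3′ to 5′ exonuclease that degrades RNA, was lower in MYC_Off (chromosome 7, 78913424 to 78920396). It had 31.2, 11.9 and 28.7 CPM in MYC_Off, against 45.8, 72.0 and 47.7 CPM in MYC_On. The groups did not overlap (log2 fold change -1.2, SE 0.40, adjusted p = 0.0364), but the call was lost without MYC_On replicate 1 (-1.38, adjusted p = 0.0582), 2 (-1.02, adjusted p = 0.111) or 3 (-1.35, adjusted p = 0.0643). The remaining 3 effectors overlapped between groups and did not pass. Bst2 (tetherin, which holds budding virions at the membrane) had 79.2, 177 and 109 CPM in MYC_Off, against 72.4, 97.7 and 107 CPM in MYC_On. Its log2 fold change was 0.40 (SE 0.34, adjusted p = 0.345), -0.06 without MYC_Off replicate 2, 0.20 without MYC_On replicate 1, and -0.39 with scaling by library size only. Samhd1, which depletes deoxynucleotides, had 109, 45.8 and 43.7 CPM in MYC_Off, against 51.0, 79.6 and 46.8 CPM in MYC_On. Its difference (0.16, SE 0.41, adjusted p = 0.763) was -0.55 when MYC_Off replicate 1 was left out, -0.04 when MYC_On replicate 3 was, and -0.46 under scaling by library size. Adar, which edits adenosine in double-stranded RNA, had 33.0, 24.7 and 19.2 CPM in MYC_Off, against 11.1, 21.6 and 12.6 CPM in MYC_On (0.77, SE 0.35, adjusted p = 0.0997, and 0.40 without MYC_Off replicate 1). Exons of Adar share 16.8% of their bases with Chrnb2 on the other strand.

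**Figure D3:**
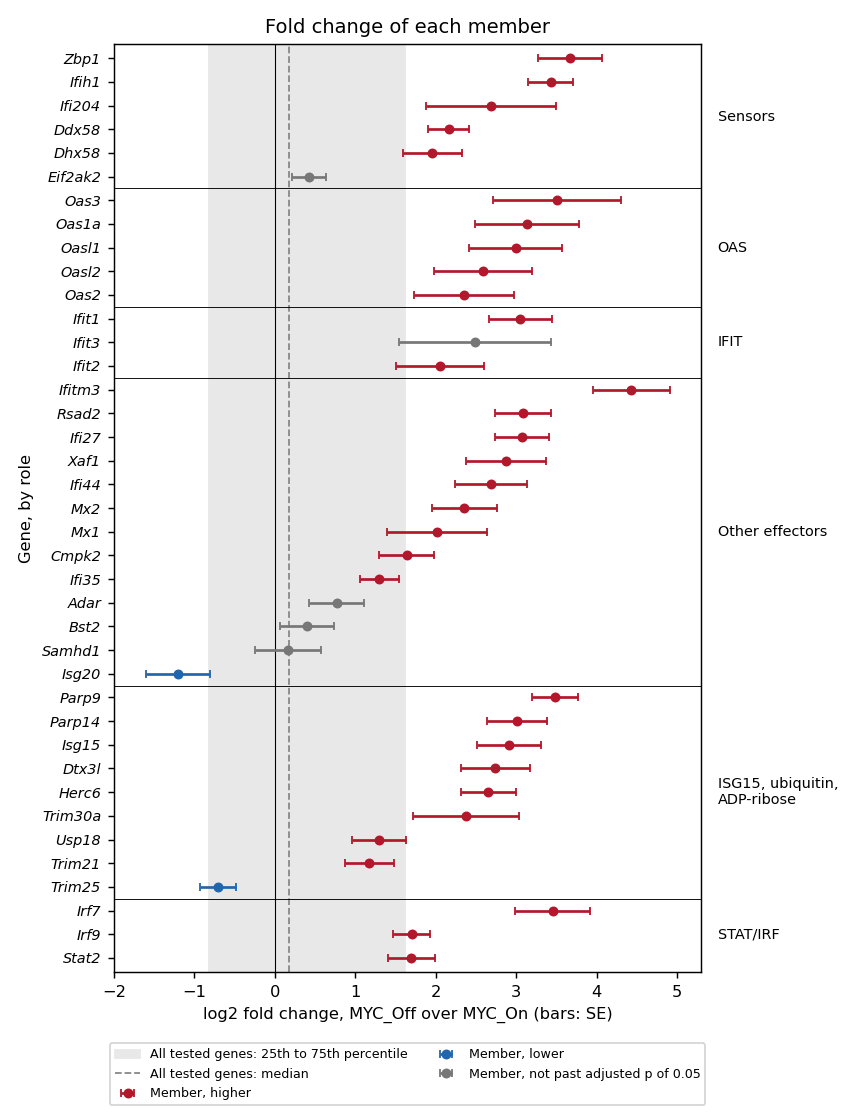
Log2 fold change of MYC_Off over MYC_On (horizontal axis, bars SE) for the 39 genes by role, red where higher, blue where lower and grey where not past an adjusted p of 0.05. The grey band spans the 25th to 75th percentile of all tested genes (-0.82 to 1.62) and the dashed line their median (0.18). Isg20 and Trim25 lie left of 0, and most other genes lie right of the band.

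The group of ISG15, ubiquitin and ADP-ribose enzymes had 8 of 9 members higher in MYC_Off and 1 lower, with a median log2 fold change of 2.65. Isg15, a ubiquitin-like protein that is joined to other proteins (chromosome 4, 156199424 to 156200818), had 16.9, 14.1 and 21.9 CPM in MYC_Off, against 1.47, 2.41 and 3.16 CPM in MYC_On. Its MYC_Off libraries had the same order as those of Ifit1 (log2 fold change 2.91, SE 0.40, adjusted p = 0.00164). Herc6, the ligase that attaches Isg15 in mouse, had 17.2, 23.3 and 15.6 CPM in MYC_Off, against 3.16, 2.21 and 3.55 CPM in MYC_On (2.65, SE 0.34, adjusted p = 0.00136). Usp18, the protease that removes Isg15 and restrains the interferon receptor, changed less. It had 15.4, 13.2 and 16.4 CPM in MYC_Off, against 7.75, 6.55 and 3.99 CPM in MYC_On (1.30, SE 0.34, adjusted p = 0.0156). Leaving out MYC_On replicate 2 or 3 gave an adjusted p of 0.0559 (1.30) or 0.0611 (1.01), and library size only one of 0.276 (0.57).

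Parp9 and Dtx3l form a complex that modifies histones and proteins with ADP-ribose and ubiquitin, and Parp14 is a mono-ADP-ribosyl transferase. Parp9 had 52.6, 74.7 and 78.2 CPM in MYC_Off, against 5.79, 7.53 and 5.08 CPM in MYC_On (log2 fold change 3.48, SE 0.28, adjusted p = 0.000805). Dtx3l had 45.5, 75.8 and 74.4 CPM in MYC_Off, against 13.8, 10.5 and 4.93 CPM in MYC_On (2.74, SE 0.42, adjusted p = 0.00246). Both were lowest in MYC_Off replicate 1, and they share 458 exon bases on opposite strands, in which their reads may not have been told apart. Parp14 had 67.5, 65.4 and 77.9 CPM in MYC_Off, against 6.73, 13.6 and 5.72 CPM in MYC_On, nearly level across MYC_Off (3.01, SE 0.37, adjusted p = 0.00127).

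The TRIM proteins are ubiquitin ligases, and these 3 went different ways. Trim30a, a mouse protein that restrains NF-kB signalling, had 62.7, 22.1 and 9.29 CPM in MYC_Off, against 5.57, 7.16 and 5.42 CPM in MYC_On (log2 fold change 2.38, SE 0.65, adjusted p = 0.0194). Most of its difference lay in MYC_Off replicate 1, without which it stood at 1.23 (adjusted p = 0.0391), and without MYC_On replicates 1, 2 and 3 in turn its adjusted p was 0.0692, 0.0656 and 0.0755 (2.26, 2.46 and 2.24). Library size only gave 1.82 (adjusted p = 0.0694). Trim21, the receptor for antibody inside the cell, had 14.6, 10.6 and 10.8 CPM in MYC_Off, against 5.43, 5.28 and 5.18 CPM in MYC_On (1.17, SE 0.30, adjusted p = 0.0145). Leaving out MYC_On replicates 1, 2 or 3 gave an adjusted p of 0.0698, 0.058 or 0.0658 (1.14, 1.12 or 1.10), and library size only one of 0.353 (0.49). Trim25, reported to ubiquitinate RIG-I (chromosome 11, 88999376 to 89020293), was lower in MYC_Off. It had 109, 132 and 115 CPM in MYC_Off, against 177, 216 and 187 CPM in MYC_On, with no overlap (-0.71, SE 0.22, adjusted p = 0.0312). Its call was lost without MYC_On replicate 1 (-0.82, adjusted p = 0.0752), 2 (-0.67, adjusted p = 0.0852) or 3 (-0.78, adjusted p = 0.0708). Trim25 and Ddx58 (RIG-I) therefore had differences of opposite sign in these libraries.

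All 3 STAT and IRF regulators were higher in MYC_Off, and in each of the 14 alternative analyses. Irf7, which amplifies the transcription of interferon genes (chromosome 7, 141262706 to 141266481), had 155, 69.7 and 77.7 CPM in MYC_Off, against 5.88, 13.8 and 7.99 CPM in MYC_On. It was highest in MYC_Off replicate 1 and remained far above MYC_On in the other replicates (log2 fold change 3.45, SE 0.46, adjusted p = 0.00159). Stat2 had 43.6, 73.5 and 86.0 CPM in MYC_Off, against 23.4, 19.0 and 20.3 CPM in MYC_On (1.70, SE 0.29, adjusted p = 0.00358). Irf9 had 38.8, 39.3 and 48.9 CPM in MYC_Off, against 11.3, 15 and 12.8 CPM in MYC_On (1.70, SE 0.23, adjusted p = 0.00158). Stat2 and Irf9, partners in one complex, thus had differences of the same size.

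Set side by side, 5 of 6 sensors, 16 of 21 effectors, 8 of 9 ISG15 and ubiquitin genes and 3 of 3 regulators were higher. The effectors comprised 5 of 5 OAS genes, 2 of 3 IFIT genes and 9 of 13 others. With scaling by library size only the counts were 4 of 6 sensors, 4 of 5 OAS genes, 1 of 3 IFIT genes, 6 of 13 other effectors, 5 of 9 ISG15 and ubiquitin genes and 3 of 3 regulators. The median log2 fold changes were 2.42 for sensors, 2.49 for effectors, 2.65 for the ISG15 and ubiquitin group and 1.70 for regulators, where Irf7 at 3.45 stood apart from Stat2 and Irf9. Differences between roles were not tested. The 2 genes that were lower and 4 of the 5 that did not pass (Bst2, Samhd1, Eif2ak2 and Adar) ranked between 1st and 15th of the 39 by level per length in MYC_On. Genes called higher also stood in this range, among them Ifitm3 (2nd), Ifi27 (5th) and Ifi35 (6th). The MYC_On level is the base of the fold change, so the 2 measures are not independent.

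Levels of different genes were compared as mean CPM per kilobase of exon. In MYC_On, Bst2 (102.1), Ifitm3 (37.0), Trim25 (33.6), Isg20 (29.7) and Ifi27 (10.3) were the 5 highest, and Ifi35 (8.31), Samhd1 (6.47) and Eif2ak2 (3.78) followed. In MYC_Off the order was led by Ifitm3 (797.3), Bst2 (134.7), Ifi27 (86.5), Irf7 (26.7) and Isg15 (23.3). Irf7 had ranked 11th and Isg15 10th of the 39 in MYC_On. Parp9 ranked 8th in MYC_Off at 14.1 and 20th in MYC_On at 1.26. Oas3 was the lowest in both groups, at 0.911 in MYC_Off and 0.079 in MYC_On. Adar ranked 30th in MYC_Off at 3.16 and 15th in MYC_On at 1.86.

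**Figure D4:**
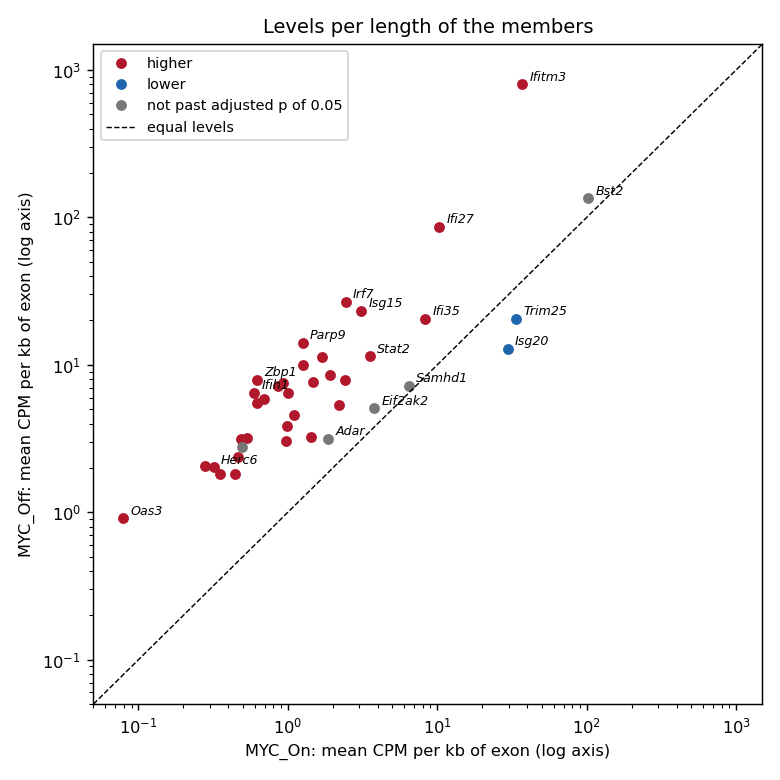
Mean CPM per kilobase of exon of the 39 genes in MYC_Off (vertical, log axis) and MYC_On (horizontal, log axis), coloured by call, with the dashed line at equal levels. Ifitm3 is highest in MYC_Off at 797.3, Bst2 lies near the line at 134.7 in MYC_Off and 102.1 in MYC_On, and Trim25 and Isg20 lie below it.

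The MYC_Off libraries did not agree on which genes were highest. MYC_Off replicate 1 was at least 2 times each of the other MYC_Off libraries in 8 of the 39 genes (20.5%), against 11.8% of all tested genes. The 8 are Ifi204, Oas1a, Oas3, Oasl2, Ifit2, Samhd1, Ifi44 and Trim30a, a set described after its values were seen. Of the 12 macrophage markers 9 (75%) met the same criterion, as did all 7 tested T cell markers. The log2 ratio of MYC_Off replicate 1 to the mean of replicates 2 and 3 was 2.54 for Ifi204, 2.00 for Trim30a and 1.82 for Oasl2. For the macrophage markers its median was 1.63 (1.07 to 2.09), for the T cell markers 3.97 and for the hepatocyte markers -1.5. It was 3.50 for NK cell, 3.14 for B cell, 1.27 for endothelial (0.36 to 1.65) and 0.99 for plasmacytoid dendritic cell markers, of which 5 of 6 were above 0. For the neutrophil markers it was -0.11, with 2 above 0 and 5 below. Ifitm3, Stat2, Dtx3l, Ifi27, Ifih1 and Ddx58 went the other way, with ratios of -0.79, -0.87, -0.72, -0.68, -0.52 and -0.52. The median over all 39 genes was 0.10, close to that of all tested genes (-0.03). The ratio was 1.07 for Irf7 and -1.2 for Oasl1. The part of any of these cell types in these values was not tested.

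**Figure D5:**
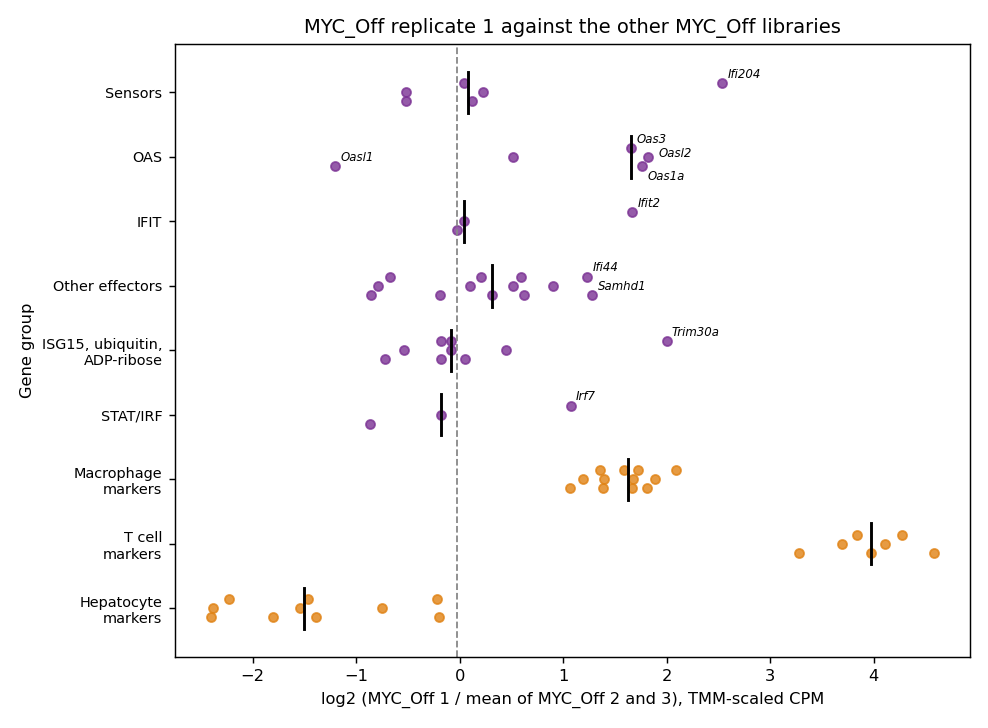
Log2 ratio of MYC_Off replicate 1 to the mean of MYC_Off replicates 2 and 3 (horizontal axis, TMM-scaled CPM) for each gene by role (purple) and for markers of 3 cell types (orange), with black bars at group medians and a dashed line at the median of all tested genes. Trim30a (2.00), Oas1a, Oas3 and Oasl2 lie within the range of the macrophage markers (1.07 to 2.09), Ifi204 (2.54) lies above it, and most sensors and ISG15 genes lie near or below 0.

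Markers of other cells that make or answer interferon also differed between the groups. All 12 macrophage markers were higher in MYC_Off, led in level by Lyz2, with 3350, 1290 and 937 CPM in MYC_Off, against 226, 239 and 483 CPM in MYC_On. Of the 8 markers of plasmacytoid dendritic cells, the main producers of type I interferon in blood, 3 of 6 tested were higher, with Bst2 itself in this list. Siglech, which defines them in mouse, had 4.78, 1.30 and 3.30 CPM in MYC_Off, against 0.0891, 0.778 and 0.641 CPM in MYC_On. Of the 8 neutrophil markers 7 were tested and all 7 were higher. Their summed level was 161.4, 141.7 and 246.3 CPM in MYC_Off, against 2.36, 0.98 and 2.17 CPM in MYC_On. A marker with few reads in MYC_On can pass the filter on low counts through its MYC_Off reads alone. Counts of such markers called higher are therefore not independent of the filter. Of 8 endothelial markers 6 of 7 tested were higher. Also higher were 6 of 7 tested T cell markers (10 listed) and 3 of 6 tested NK cell markers (7 listed). So were 2 of 2 tested B cell markers (6 listed), and the markers of these cells were raised mainly in MYC_Off replicate 1. In MYC_Off replicate 3 the summed T cell level, 5.84 CPM, lay within the MYC_On range (3.79 to 6.02). The NK cell level there, 4.84 CPM, did too (3.39 to 5.98). Over all tested genes, 29.9% were higher. The part of any of these cells in the interferon-stimulated genes was not tested.

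Transcripts of the interferons themselves were at or near 0 reads. Of 19 interferon genes listed, 16 had 0 reads in all 6 libraries, which allows up to 0.123 to 0.230 CPM in a library (3 reads, counting error only). That bound does not cover reads left out because they match several genes, and how such reads were counted is not given. Trex1 and Ifi44l, which are no interferon genes, also had 0 reads in all 6 libraries. A count of 0 here therefore need not mean that a transcript was absent. Ifnb1 had 0 reads in MYC_Off and 1 in MYC_On. Ifnk had 3 and 1, and Ifng, the type II interferon, 2 and 2, summed over the libraries of MYC_Off and MYC_On. None was tested, and a difference was not detectable at this depth.

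The receptors and their signalling genes were present in both groups, and 9 of 12 were higher in MYC_Off, with 0 lower. Over all tested genes, 29.9% were higher and 22.8% were lower. Ifnar1 and Ifnar2, the chains of the type I receptor, differed unequally. Ifnar1 had 80.1, 71.6 and 77.8 CPM in MYC_Off, against 36.3, 38.7 and 36.9 CPM in MYC_On (log2 fold change 1.04, SE 0.19, adjusted p = 0.00392). Ifnar2 had 88.2, 70.0 and 105 CPM in MYC_Off, against 15.5, 15.4 and 17.5 CPM in MYC_On (2.44, SE 0.24, adjusted p = 0.000849). Both chains separated the groups with little spread within MYC_On. Of the receptor kinases, Jak1 changed by 0.98, Jak2 by 2.00 and Tyk2 by 1.43, and all 3 passed. For the type II receptor, Ifngr1 changed by 2.36 while Ifngr2 stood at 0.00 (adjusted p = 0.992). Ifngr1 was highest in MYC_Off replicate 1, at 242 CPM, against 90.2 and 117 CPM in MYC_Off replicates 2 and 3. Il10rb, a chain of the type III receptor, changed by 1.59, and its partner Ifnlr1 did not pass (1.06, adjusted p = 0.229). Of the feedback inhibitors Socs3 was higher (1.90, adjusted p = 0.00261) and Socs1 did not pass (1.5, adjusted p = 0.166).

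Of 11 tested adaptors and kinases of nucleic acid sensing 7 were higher and 0 lower. The 3 with the smallest p were Tlr3, an endosomal sensor of double-stranded RNA (3.31, SE 0.32), Ikbke, a kinase that phosphorylates IRF3 and IRF7 (3.45, SE 0.34), and Myd88, an adaptor of Toll-like receptors (2.57). Tlr3 was even, with 14.7, 12.5 and 15 CPM in MYC_Off, against 1.38, 1.43 and 1.43 CPM in MYC_On. Of 8 other genes of the IRF group 4 were higher and 1 lower, with Irf2 at 2.62, Irf1 at 1.72 and Irf5 at 3.12. Irf5 was highest in MYC_Off replicate 1, at 71.6 CPM, against 25.7 and 16.7 CPM in MYC_Off replicates 2 and 3. Of 28 tested further interferon-stimulated genes 25 were higher and 0 lower, where 29.9% of all tested genes were higher, and their median was 2.44. Parp12 had 40.9, 48.4 and 66.4 CPM in MYC_Off, against 4.01, 5.48 and 4.04 CPM in MYC_On. Nmi had 18.1, 20.2 and 14.9 CPM in MYC_Off, against 1.51, 1.11 and 1.18 CPM in MYC_On. Gm4951, annotated as protein coding, had 35.4, 110 and 88.1 CPM in MYC_Off, against 1.02, 0.696 and 1.08 CPM in MYC_On, at 6.37 on the log2 scale (SE 0.53).

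The 39 genes lie on 15 chromosomes, and 15 of them lie within 200 kb of another. Ifit2, Ifit3 and Ifit1 follow each other on chromosome 19, with 7.11 and 52.1 kb between neighbours. Oas2, Oas3 and Oas1a lie together on chromosome 5, and Oasl2 and Oasl1 lie 11.0 kb apart elsewhere on it. Oasl2 was highest in MYC_Off replicate 1 and its neighbour Oasl1 in MYC_Off replicate 3. Parp14, Dtx3l and Parp9 are neighbours on chromosome 16, as are Mx1 and Mx2, and Rsad2 and Cmpk2 lie 12.8 kb apart on chromosome 12. Reads may be shared among copies of a gene: 12 of the 39 have no 50-base string in common with transcripts of other genes, 32 have under 10% in common, and 2 have over 50%, Oas1a (57.6%, with Oas1g) and Ifit3. Ifi204 shares 20.0%, most of it with Ifi211. How the authors counted reads with several matches is not given in the sources used here, so the counts of these 3 genes are uncertain.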

How the data were processed

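RNA was sequenced from 3 MYC_Off and 3 MYC_On tumour samples, grouped by sample title. The authors deposited whole-number read counts per gene symbol, not normalized. Per the submitters' processing notes, Trimmomatic, STAR, Picard, featureCounts and DESeq2 were used with mm10. The sources used here do not give versions, annotation or strand setting. In the table, 26 symbols had become dates and 2 were repeated, and those rows were kept under row numbers.

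All genes were fitted with edgeR 4.0.16 in R 4.3.3 (filterByExpr with a minimum count of 10 and total of 15, TMM scaling, robust quasi-likelihood fit and test), with Benjamini-Hochberg adjustment over 14130 genes and calls at 0.05. The SE is the size of the log2 fold change over the square root of F. CPM values use the reads of tested genes. Coordinates, exon lengths and transcripts came from GENCODE M21 (mm10), promoter windows from RefSeq on GRCm38.p6. Libraries of a group were compared by chi-square, which was at least 29.1 per degree of freedom, so no pair held the same library within counting noise. Repeat preparations of 1 tumour would not be seen by it. The fit was tested on simulated data. Alternatives used DESeq2 1.42.0 and limma 3.58.1, other scalings and filters, glmTreat, a replicate block and leaving out each library. Figures were drawn with matplotlib 3.10.9.

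The members, lists and role groups were chosen with earlier results of these data known. Genes named in the text are all 39 members, Myc, genes of the receptor and ligand lists (1 receptor signalling gene is counted but not reported here), the 3 genes with the smallest p in each other pathway list and the most abundant cell type markers. Siglech was named after its values were seen. The run names of all libraries share the same run part, and the labels do not say what it stands for. The index name of MYC_Off replicate 3 differs in form from those of the rest.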

Additional observations from a re-analysis of the deposited data

How the results depend on the processing

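Of the 34 genes called among the 39, 22 kept their call and direction under all 14 alternatives. Members called lower numbered 2, but 0 with a replicate block, with glmTreat against 2-fold, and 0 to 2 when 1 library was left out. The median log2 fold change of members, 2.49, was 1.82 with library size only and 2.02 to 2.53 when 1 library was left out. Members called higher numbered 23 to 33 over the alternatives. With library size only the IFIT family had 1 gene higher and the ISG15 and ubiquitin group 5, and the same counts, 1 and 5, held with glmTreat. Leaving out 1 library gave 3 to 5 OAS genes, 1 to 3 IFIT genes and 5 to 8 genes of the ISG15 and ubiquitin group. Over all tested genes, 4222 were higher and 3221 lower, against 2527 and 5300 with library size only, 2621 and 1428 with glmTreat, and 2776 to 4317 higher when 1 library was left out. Of all calls 56.7% were higher under TMM, against 32.3% under library size. Scaling by library size turned the sign of Eif2ak2 (-0.299), Bst2 (-0.3948) and Samhd1 (-0.4593). When 1 library was left out, Bst2 ranged from -0.0594 to 0.4858 and Samhd1 from -0.5459 to 0.3824. Ifngr2, at 0.0045, took -0.0656 with DESeq2 and with its size factors, -0.6446 with library size only, -0.0848 with no filter, -0.0519 with limma-voom, -0.0433 with a replicate block, and -0.4482 to 0.1739 when 1 library was left out. For each, the cause was not tested.

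Same-numbered libraries did not deviate together (correlations -0.26, -0.17 and 0.04 over 14130 genes), and unlike-numbered ones took -0.12 to 0.32. With 3 libraries per group this cannot decide whether the samples were paired, and the labels do not say. With the replicate block 28 members were higher. Genes with few reads, such as Oas3 with 39 reads over MYC_On, carry wide errors.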
